A study of Oncorhynchus mykiss with 72 samples.

Results

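The features described here are 215 of the 23234 transcript features measured in all 3 strain tables of a redband trout gill study. They were selected on measured values: the signed difference, 28 °C minus 15 °C, was higher in libraries labelled Keithly than in libraries labelled Little Jacks. A deeper fall in Little Jacks therefore also counted. The heat effect was taken on the log2(value + 0.5) scale as the median of 3 libraries at 28 °C minus the median of 3 at 15 °C, for each strain and day. A feature entered the set when its overall mean was at least 5 deposited units, which 16763 features reached, when the Keithly effect exceeded the Little Jacks effect on all 4 days, and when the gap averaged at least 0.8. The parental libraries therefore chose the members, and their effects are given only as a description. The heat effect of the F1 cross played no part in the choice, although its values entered the overall mean.

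The study sequenced gill RNA of redband trout (Oncorhynchus mykiss) from an F1 cross of 2 strains (LJxK), from the montane strain of Keithly Creek (K) and from the desert strain of Little Jacks Creek (LJ). Fish of each strain were held at 28 °C or at 15 °C, the control temperature, and sampled on days 1, 3, 7 and 28. The 24 groups held 3 libraries each, and each library pooled RNA samples of fish from 1 rearing tank, so p-values measure the spread between such pools. The labels give no age and name no engineered allele or drug treatment.

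The gill is the fish's organ of gas exchange, of salt and acid-base balance and of nitrogen excretion, and warm water reaches it first. Warm water holds less oxygen, and heat unfolds proteins. Cells of ectotherms answer with chaperones of the heat shock families, which are induced within hours and later decline as the animal acclimates. In a cross, a heat effect halfway between the parents is called additive, and an effect close to 1 parent is called dominant for that parent.

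None of the identifiers carries a gene name, except ribosomal RNA features that the files name themselves, and 0 of 25137 identifiers matched the reference table of trout genes. No member could therefore be assigned to chaperones, ion transporters, cell type markers or any pathway, the gill label could not be checked against markers, and no sequence is shown. The 215 members comprised 208 gene models, 5 singletons and 2 features that the files name as 16S ribosomal RNA. The same classes made up 16490, 264 and 9 of the 16763 features that could have entered.

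Differences between the strain labels at 28 °C did not carry over to 15 °C, and every heat effect below rests on those labels. Over the 16763 features, the offset of each strain from the mean of the 3 strains was computed at 28 °C and, from other libraries, at 15 °C. Within a temperature the offsets of a strain on days 1 and 7 were compared with those on days 3 and 28. At 28 °C the correlations across features were 0.26 for the F1 cross, 0.30 for Keithly and 0.51 for Little Jacks. At 15 °C they were 0.61, 0.19 and 0.39 for the same strains. Between temperatures the offsets of the same label correlated at -0.50 for the F1 cross, -0.06 for Keithly and -0.61 for Little Jacks, so they were opposed in the F1 cross and in Little Jacks and near 0 in Keithly. The 3 offsets of a feature sum to 0 at each temperature. A negative correlation of a label with itself therefore forces a positive one with another label. Different labels correlated positively in 4 pairs, which are not separate observations. The offset of Little Jacks at 28 °C correlated at 0.58 with that of the F1 cross at 15 °C, and that of Keithly at 28 °C at 0.47 with that of Little Jacks at 15 °C. The offset of the F1 cross at 28 °C correlated at 0.42 with that of Little Jacks and at 0.25 with that of Keithly at 15 °C. Without the 7 libraries that lay beyond the largest gap on the first component of within-group residuals and the 3 libraries of fewer than 1 M recovered reads, the correlations of the same label were -0.37 for the F1 cross, -0.08 for Keithly and -0.46 for Little Jacks, and those of the 4 pairs of different labels, in the order above, were 0.49, 0.35, 0.18 and 0.35. With the same libraries left out, the correlations between days at 28 °C were 0.13 for the F1 cross, 0.26 for Keithly and 0.27 for Little Jacks. At 15 °C they were then 0.64, 0.31 and 0.48. Of the 7 libraries, 3 were Little Jacks libraries at 28 °C. Features are not independent and share the libraries of a group, so these correlations are descriptions.

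Features that differed from Little Jacks at both temperatures almost always did so in opposite directions. The difference between Keithly and Little Jacks reached 2-fold at both temperatures in 34 features, and its direction was opposite in 34 of them. For the F1 cross against Little Jacks 168 features reached it, and 167 of them were opposite. For the F1 cross against Keithly 22 reached it, of which 12 were opposite and 10 alike. With the 215 members left out, all 26 features for Keithly and all 157 for the F1 cross against Little Jacks were opposite. Without the 10 libraries named above, 24 of 24 and 85 of 87 were. The number that reached 2-fold at 28 °C alone depended on those libraries, with 148 without them against 535 with them for the F1 cross against Little Jacks, and 119 against 401 for Keithly against Little Jacks. Whether the strain differences reversed between temperatures, or whether a strain name covers different fish at 28 °C and at 15 °C, cannot be told apart here. A heat effect is a difference between libraries of 1 label at both temperatures, so each strain name below is the one in the column names.

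The gap of a member is its Keithly minus Little Jacks difference at 28 °C minus that at 15 °C, so the rule favours members above Little Jacks at 28 °C and below it at 15 °C. Their levels are given only to place the gap and add nothing to the comparison over all features. Levels between strains come from tables that were normalised separately, so each difference in level was centred on the median of all 16763 features. At 28 °C the log2 level was higher in Keithly than in Little Jacks for 215 members, with a median difference of 0.60. At 15 °C it was higher in Keithly for 5 members, and the median difference was -0.43. In Keithly 210 members were above Little Jacks at 28 °C and below it at 15 °C, and the gap stood mostly at 28 °C in 140 members and mostly at 15 °C in 75. The F1 cross lay between the parents at 28 °C, with a median level 0.29 below Keithly and 0.33 above Little Jacks. At 15 °C the F1 cross was lower than Little Jacks by a median of 0.51 and lower than Keithly by 0.07.

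**Figure D1:**
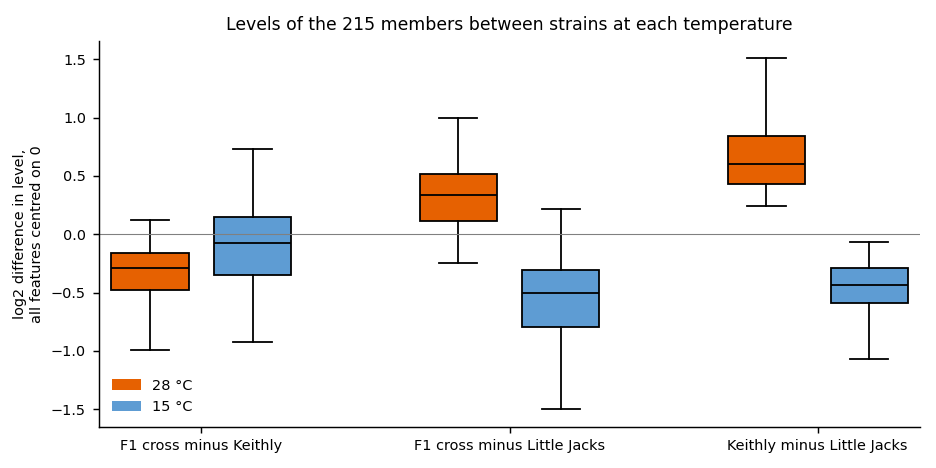
Log2 differences in level of the 215 members between strains at 28 °C and 15 °C, with the median of all features set to 0. Boxes show quartiles and the median over members, whiskers the 5th to 95th percentile. The Keithly minus Little Jacks boxes stand above 0 at 28 °C (median 0.60) and below 0 at 15 °C (median -0.43).

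The gap that defined the set was modest for most members. It averaged between 0.8 and 1 in 100 members, reached 2 in 15 and 3 in 8, and its median was 1.02. From day 1 to day 28 the median gap was 0.93, 1.07, 1.21 and 1.04. Just inside the limit, 3 members had a gap of 0.80, and 3 features just outside had 0.796, 0.796 and 0.797, so the limit separates features of nearly equal gap. On all 4 days the signed effect was higher in Keithly for 2191 eligible features and higher in Little Jacks for 1350. A mirrored rule, with Little Jacks above Keithly, chose 262 features. The size of the set depended on the Keithly libraries at 15 °C on day 28, where replicate 1 was 1 of the 3 shallow libraries and replicate 2 lay beyond the gap. Without replicate 1 the rule chose 206 features, without replicate 2 it chose 390, and without replicate 3 it chose 393.

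The overall means of the members had a median of 14.8 deposited units, against 15.7 over all eligible features, and ranged from 5.02 to 3005. Recovered reads ranged from 0.276 to 19.9 M per library with a median of 6.43 M, so that 3 reads corresponded to 0.132 to 9.24 deposited units. In 150 members at least 1 of the 72 libraries held 3 reads or fewer, and 65 members had none such. Of the 8 members with a gap of at least 3, 4 had 10 or more libraries at or under 3 reads, against 4 of the other members.

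By the sign of the parental effects averaged over days, the members fell into 3 classes. In 140 members the averaged effect was above 0 in Keithly and below 0 in Little Jacks. Another 41 were above 0 in both parents and 34 below 0 in both. By these averages most members had opposite parental effects and fewer a shared rise that was larger in Keithly. The rule chose members by the gap between the same effects, so the classes are descriptions. Over all members the median effect averaged over days was 0.57 in Keithly and -0.52 in Little Jacks. The sign held on all 4 days for 132 of all members in Keithly and for 141 in Little Jacks. Among the 140 it held for 79 in Keithly and for 83 in Little Jacks.

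The test of the gap itself used the same libraries as the rule and is given without weight. limma called 110 of the 215 members for Keithly minus Little Jacks at an adjusted p under 0.05. Over all 23234 features the share called higher was 1.34%. The calls fell on 76 of the 140 members of opposite parental effect, 14 of the 41 that were above 0 in both parents and 20 of the 34 that were below 0 in both.

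The question left to the F1 cross was on which side of the parents its heat effect fell. Over the members its median effect from day 1 to day 28 was 0.17, 0.29, 0.31 and 0.44. Keithly had 0.46, 0.63, 0.58 and 0.71 on those days, and Little Jacks had -0.60, -0.53, -0.63 and -0.43. The F1 medians thus lay above 0, below Keithly and far above Little Jacks on every day.

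**Figure D2:**
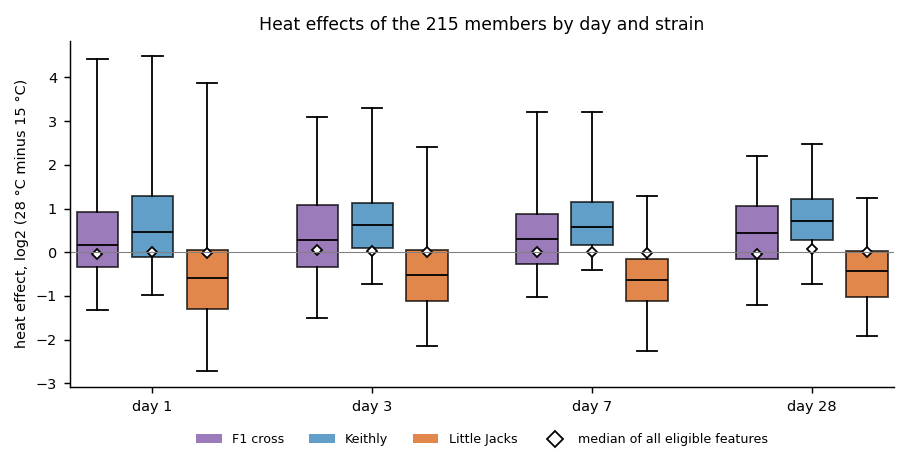
Heat effects (log2, 28 °C minus 15 °C) of the 215 members by day in the F1 cross, Keithly and Little Jacks. Boxes show quartiles and the median over members, whiskers the 5th to 95th percentile, and diamonds the median of all 16763 features. The F1 medians run between 0.17 and 0.44, beneath those of Keithly and above those of Little Jacks.

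Placed on a scale where 0 is the Little Jacks effect and 1 the Keithly effect, the F1 cross had a median position of 0.77, with quartiles of 0.52 and 1.07. Its averaged effect was nearer Keithly in 164 members, or 76.3%. It lay between the parents in 130 members, above both in 67 and below both in 18. Day by day it was nearer Keithly in 149 members on day 1, 146 on day 3, 142 on day 7 and 134 on day 28, but only 69 members were nearer Keithly on all 4 days and 18 were nearer Little Jacks on all 4. Among the 65 members with no library at or under 3 reads the median position was 0.77, and the F1 cross was nearer Keithly in 50.

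Nearness to Keithly was also seen in the mirrored set. Among the 262 features of the mirrored rule, the F1 cross was nearer Keithly in 207, or 79.0%, at a median position of 0.88. There the median averaged effect was -0.64 in the F1 cross, -0.73 in Keithly and 0.57 in Little Jacks. The difference between the sets was not tested. Both sets were chosen at the extremes of the parental libraries, and 3 of the 7 libraries beyond the gap were Little Jacks libraries at 28 °C. The part of either in the position was not tested.

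**Figure D3:**
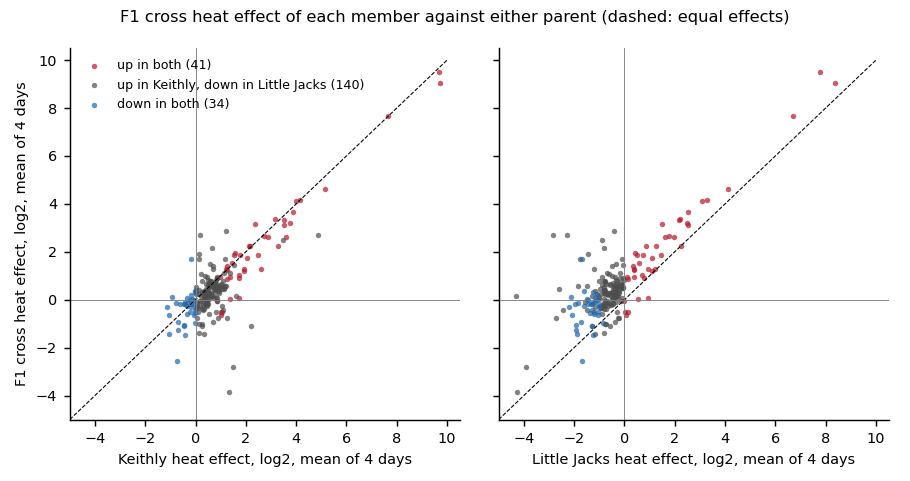
Heat effect of the F1 cross (vertical axis) against that of Keithly (left) and Little Jacks (right), each as log2 averaged over 4 days, with 1 point per member. Colours mark the sign of the parental effects and the dashed line equal effects. Against Keithly 67 of the 215 members lie on or above the line, whereas against Little Jacks all but 18 lie above it.

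The heat effect in the F1 libraries played no part in the rule and could be tested. Its independence of the gap holds only if each strain name covers the same fish at both temperatures, which cannot be told here. Averaged over days, limma called 78 members higher at 28 °C and 22 lower. These are 36.3% and 10.2% of the members, where 14.5% of all 24011 features in the F1 table were called higher and 12.8% lower. Over the 16763 eligible features, which passed the same minimum as the members, the shares were 17.6% and 14.3%. The median F1 log2 fold change was 0.35 over the members and 0.02 over all features. edgeR's quasi-likelihood test on recovered reads called 78 higher and 23 lower. Its share of all features is not given here, so no excess is read from these counts. With each library scaled to its column total, limma called 59 members higher and 33 lower, where 7.01% and 18.8% of all features were called, and the median over all features was then -0.17.

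Of the 78 raised members, 76 were above 0 in Keithly and 43 were below 0 in Little Jacks. Of the 22 lowered members, 22 were below 0 in Little Jacks and 11 above 0 in Keithly. The same sign on all 4 days was seen in 58 of the raised and 16 of the lowered members. The 12 libraries at 28 °C lay wholly above the 12 at 15 °C in 16 raised members and wholly below in 2 lowered ones, where 0.954% and 0.783% of all features in the table did so.

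On single days fewer members were called. limma called 41 members higher and 12 lower on day 1, where 6.70% and 5.78% of all features were called. On day 3 it called 43 higher and 8 lower, against 6.38% and 3.94% of all features. On day 7 the calls were 34 and 4, against 2.48% and 2.30%, and on day 28 they were 33 and 4, against 2.57% and 3.06%. The share of members called higher was above the share of all features on each day. Shares of eligible features on single days are not given here, so no excess is read. The class above 0 in both parents held 31 of the 41 higher calls on day 1 and 26 of the 43 on day 3. It held 22 of the 34 on day 7 and 17 of the 33 on day 28. On day 1 the 140 members of opposite parental effect had 7.14% called higher and 2.86% lower, against 6.70% and 5.78% of all features. The day 1 split turned with the scaling, for all features as well as for the members. With column totals 29 members were called higher and 40 lower on day 1, where 2.80% and 22.7% of all features were called, and the median of all features shifted to -0.69, against -0.04 before. The counts on single days moved with single libraries. With heated replicate 1 left out 22 members were called higher on day 7, and with heated replicate 3 left out 19. On day 28 the count was 19 when heated replicate 1 was left out and 19 when heated replicate 3 was. Of the lowered calls, day 3 gave 4 and 5 when heated replicate 1 or 3 was left out. Those of day 7 came to 2 when heated replicate 2 or 3 or 15 °C replicate 3 was left out. Those of day 28 came to 8 without heated replicate 2, 1 without heated replicate 3, 1 without 15 °C replicate 1 and 2 without 15 °C replicate 3.

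The 41 members above 0 in both parents held 35 of the 78 raised members, or 85.4% of the class. Of eligible features 17.6% were called higher. The class was defined by a rise in both parents. The share among other features that rose in both is not given here, so no excess is read. Averaged over days the 41 members had a median log2 fold change of 1.84 in the F1 cross. The cross was nearer Keithly in 27 of them. Their median heat effect in the cross was 2.48, 2.06, 1.61 and 1.30 from day 1 to day 28. In Keithly the same members had 3.04, 2.17, 1.96 and 1.66. These medians were highest on the first day and lower at each later time in the F1 cross and in Keithly. Little Jacks was also higher on day 1 than on day 28. The class median in its heated libraries, relative to all features and to its 15 °C libraries, ran from 2.04 to 2.54 on day 1. On day 28 it ran from 0.54 to 0.74.

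The member with the largest F1 rise belongs to this class and carries no gene name. Its values at 28 °C were 240.2 at the lowest, 1294 at the median and 14861 at the highest of 12 F1 libraries, against 0, 1.76 and 10.9 at 15 °C, where 3 libraries held 3 reads or fewer. Keithly had 399, 1539 and 15003 at 28 °C and 0.973, 2.10 and 6.13 at 15 °C. Little Jacks had 88.9, 589 and 10878.5 at 28 °C and 0.927, 2.80 and 7.30 at 15 °C. The temperatures did not overlap in any strain. The F1 log2 fold change was 9.37 ± 0.30 (SE), with a limma adjusted p of 8.39e-16. The most abundant member had F1 medians of 2783 at 28 °C and 16.8 at 15 °C and a log2 fold change of 7.49 ± 0.22 (SE; limma adjusted p 9.79e-17).

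The change between the first and the last day was tested within the F1 cross. limma called the effect on day 28 lower than on day 1 for 17 members and higher for 6, where 2.40% and 1.18% of all features were called. The class above 0 in both parents held 15 of the 17 decreases. Among the 140 members of opposite parental effect 4 increased and 2 decreased, and their median F1 effect was 0.10, 0.29, 0.30 and 0.38 from day 1 to day 28. With column totals 39 members were called higher on day 28 and 13 lower, where 10.0% and 0.858% of all features were called, while the median change of all features moved to 0.73, against -0.10 before. The increases came to 3 when any of 4 F1 libraries was left out, namely replicate 1 of the heated day 1 group, replicate 1 of the heated day 28 group, and replicates 2 and 3 of the 15 °C day 1 group.

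The 140 members of opposite parental effect moved less in the F1 cross. limma called 41 of them higher and 11 lower averaged over days, or 29.3% and 7.86%, where 17.6% and 14.3% of eligible features were called. The median F1 position was 0.75, with 108 nearer Keithly. A median over these members was taken in each library, relative to the median of all features and to the strain's own 15 °C libraries. In the F1 cross it ran from 0.19 to 0.41 at 28 °C, with a median of 0.28, and from -0.10 to 0.17 at 15 °C. The 12 libraries at each temperature did not overlap.

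The 34 members below 0 in both parents had mostly lower values at 28 °C in the F1 cross too. Their median F1 effects were -0.55, -0.39, -0.44 and -0.02 from day 1 to day 28. limma called 11 of them lower averaged over days and 2 higher, or 32.4% and 5.88%. Over eligible features the shares were 14.3% lower and 17.6% higher. This class was defined by a fall in both parents. The share among other features that fell in both is not given here, so no excess is read. The F1 cross was nearer Keithly in 29 of the 34 members, at a median position of 1.07. Its averaged effect lay above both parents in 19 of them, between the parents in 12 and below both in 3. Their library medians at 28 °C ran from -0.60 to -0.13 in the F1 cross, from -0.61 to -0.23 in Keithly and from -1.56 to -1.06 in Little Jacks. At 15 °C they ran from -0.31 to 0.20, from -0.24 to 0.26 and from -0.32 to 0.16 in the same strains, so the temperatures overlapped in the F1 cross and in Keithly but not in Little Jacks.

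**Figure D4:**
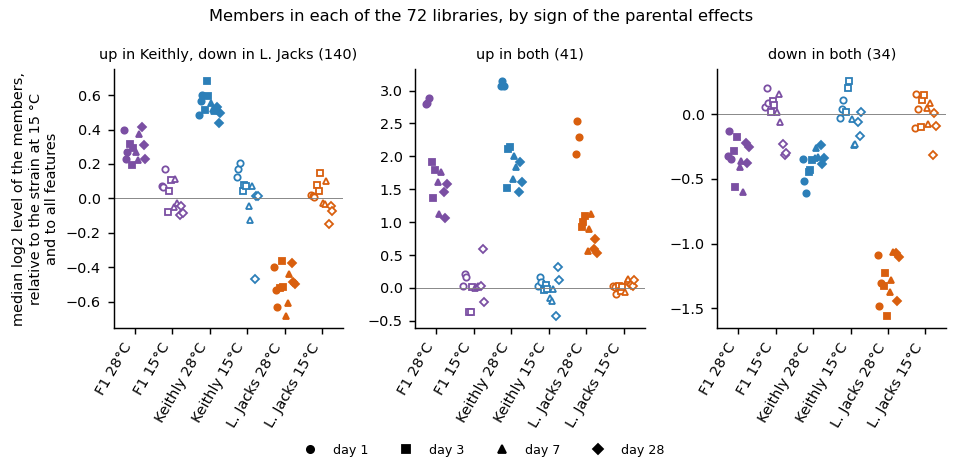
Median log2 level of the members in each of the 72 libraries, relative to the strain's 15 °C libraries and to the median of all features, for the 3 classes of parental effect. Filled symbols are 28 °C, open symbols 15 °C, and shapes mark days. For the members of opposite parental effect, the F1 libraries at 28 °C (0.19 to 0.41) lie above all F1 libraries at 15 °C and beneath those of Keithly.

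Described by identifier are 4 members, the 2 raised and the 2 lowered in the F1 cross with the largest gaps among those of 1 sign on all days. Feature g00099 is the raised member with the largest gap. In F1 libraries it held 95.3 at the lowest, 172 at the median and 307 at the highest at 28 °C, against 73.6, 102 and 199.6 at 15 °C. Keithly held 221, 315 and 413.5 at 28 °C against 98.6, 186 and 249.7 at 15 °C. Little Jacks held 39.1, 70.8 and 187 at 28 °C against 147, 243 and 491 at 15 °C. The temperatures overlapped in every strain, and the direction in Little Jacks was opposite to that in the other strains. The F1 log2 fold change was 0.60 ± 0.17 (SE) with an adjusted p of 0.0127 by limma, and with column totals it was 0.40 with an adjusted p of 0.132. On the scale between the parents g00099 lay at 0.90.

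Feature g15309 had higher medians at 28 °C in all strains and rose in the F1 cross. Its F1 values were 8.06 at the lowest, 15.0 at the median and 24.2 at the highest at 28 °C, against 0, 1.98 and 9.50 at 15 °C. Keithly had a median of 17.0 at 28 °C and 1.53 at 15 °C, and Little Jacks 12.7 and 4.20. At 28 °C the strains overlapped widely, while the 15 °C median was highest in Little Jacks. At 15 °C it held 3 reads or fewer in 2 of 12 F1 libraries and in 2 of 12 Keithly libraries. The F1 log2 fold change of 2.68 ± 0.33 (SE) had a limma adjusted p of 1.75e-06, at a position of 0.51. That fold change was 3.13 with a pseudocount of 0.1 and 2.00 with a pseudocount of 2.

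Feature g10324 switched between near 0 and high values among libraries of 1 group. In the F1 cross it held 3 reads or fewer in 8 of 12 libraries at 28 °C and in 2 of 12 at 15 °C. The F1 medians were 0.136 at 28 °C and 33.8 at 15 °C, and single libraries reached 29.6 at 28 °C and 82.8 at 15 °C. On day 7 its 3 F1 libraries at 15 °C held 82.8, 0.327 and 0.291, so pools of 1 group ranged from near 0 to the highest F1 value. Over all strains 26 of 72 libraries were at or under 3 reads. The F1 log2 fold change of -3.44 ± 0.88 (SE) had a limma adjusted p of 0.00526, at a position of 0.08. Its within-group residuals correlated at 0.96 with those of another member, so those features do not count as separate evidence.

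Feature g21197 fell at 28 °C in the F1 cross. Its F1 values were 1.72 at the lowest, 7.31 at the median and 15.6 at the highest at 28 °C, against 7.52, 16.9 and 25.6 at 15 °C. Keithly had a median of 12.7 at 28 °C and 7.01 at 15 °C, and Little Jacks 4.47 and 10.6. The F1 log2 fold change of -1.41 ± 0.28 (SE) had a limma adjusted p of 0.000695. Its position of -0.19 lay beyond Little Jacks. The difference between the heat effects of the cross and of Little Jacks was not tested.

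**Figure D5:**
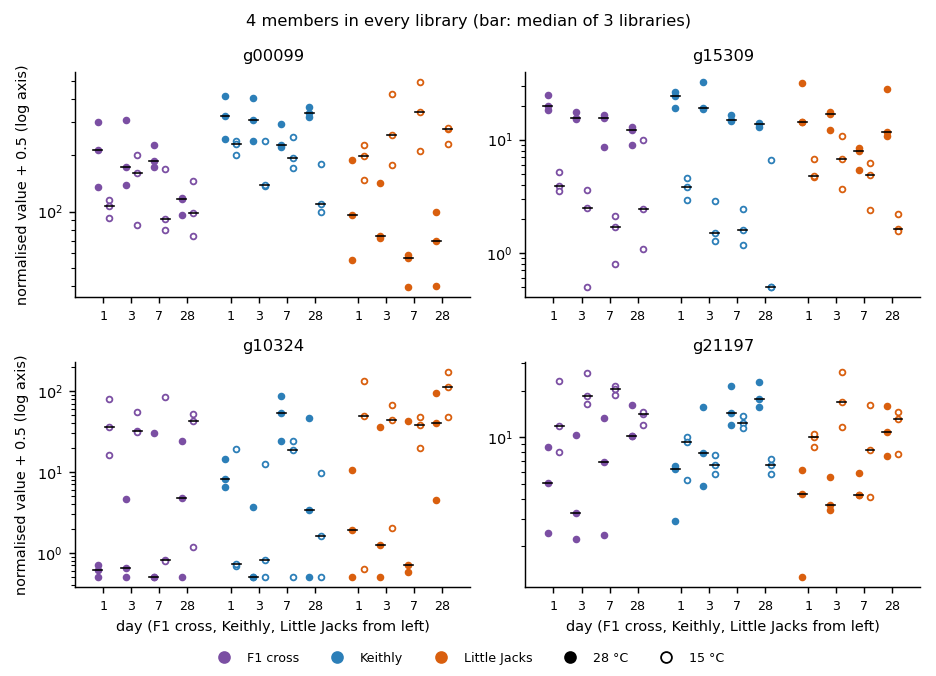
Normalised values plus 0.5 (log axis) of 4 members in each library by day, with the F1 cross, Keithly and Little Jacks from left to right in each panel. Filled points are 28 °C, open points 15 °C, and bars the median of 3 libraries. Points of g10324 spread from near 0 to over 80 within a group, whereas those of g15309 at 28 °C stay between 4.90 and 31.7.

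The 2 ribosomal members are rRNA_16S_2 and rRNA_16S_3. In vertebrates 16S ribosomal RNA is that of the large subunit of the mitochondrial ribosome. Ribosomal RNA was depleted before the libraries were made, so their values are what depletion left. rRNA_16S_2 had F1 medians of 9.01 at 28 °C and 6.60 at 15 °C, and the temperatures overlapped. Its F1 log2 fold change was 0.67 ± 0.25 (SE) with a limma adjusted p of 0.0512. rRNA_16S_3 had medians of 16.2 and 12.0 in the same order, with a log2 fold change of 0.52 ± 0.20 (SE; limma adjusted p 0.0611). Their residuals correlated at 0.75. The averaged effect in Keithly minus that in Little Jacks was 0.67 for rRNA_16S_2 and 0.46 for rRNA_16S_3. Neither was called (limma adjusted p 0.419 and 0.598). Both lie under the limit of 0.8, which the rule set on medians of 3 libraries, while limma used means. In Little Jacks 1 library at 28 °C on day 1 held 43.5 and 78.1 units of them, where the other libraries of that group held at most 8.58 and 13.5.

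The largest gap of all, 7.14, belonged to a member without a name that was also of the switching kind. In 20 of its 72 libraries it held 3 reads or fewer. Its F1 values ran from 0 to 1377 at 28 °C and from 0 to 98.1 at 15 °C, and its F1 log2 fold change of 1.98 ± 1.20 (SE) had a limma adjusted p of 0.239. Among members with no library at or under 3 reads the largest gap was 3.66. That member held 91.2 to 181 units in Keithly at 28 °C and 30.0 to 93.6 at 15 °C, against 3.29 to 95.2 and 76.7 to 178 in Little Jacks. F1 libraries held 44.8 to 95.3 at 28 °C and 5.89 to 169 at 15 °C, and its F1 log2 fold change of 0.41 ± 0.35 (SE) had a limma adjusted p of 0.416.

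Members varied weakly together among libraries of 1 group. Over 23005 pairs the median correlation of within-group residuals was 0.05, against 0.03 over pairs of all eligible features. Only 3 pairs reached 0.9, or 0.0130% of them, where 0.162% of all eligible pairs did. In the Keithly group at 15 °C on day 28, on which the size of the set depended, the median member lay at -0.43, 0.22 and 0.22 from its group mean in replicates 1, 2 and 3, where the median of all features lay at -0.17, 0.07 and 0.13. Points share the depth and the deviation of each library. The 65 members without low counts held 17 of the raised and 11 of the lowered calls, where 17.6% and 14.3% of eligible features were called. The eligible features were not held to the same limit on low counts, so no excess is read. The median F1 heat effect of these 65 members was 0.15, against 0.29 over all members.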

How the data were processed

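Gill RNA was purified on columns, depleted of ribosomal RNA and made into libraries with a ScriptSeq kit, per the labels' protocols. The authors deposited 1 table per strain with a normalised signal per feature, which is a read count divided by 1 constant per library, as the files show: all values were whole multiples of the column's smallest value within 0.01, so reads were recovered by division. The submitters' processing notes name CASAVA 1.8, Bowtie and edgeR. Neither the reference transcriptome nor its annotation is named (not given in the sources used here). A deposited library table of the authors states that each library pools 3 RNA samples of 1 tank, and it also lists reads (M) and a matched percent, which were not used. Columns were tied to strain, temperature and day by name, which matches the titles; the descriptions of the F1 samples at 28 °C on day 1 name another table, and the column names were followed. The S number of a column served only as a replicate name.

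limma 3.58.1 (R 4.3.3) with a trended prior was fitted to log2(value + 0.5), with 1 mean per group. The heat effect of the F1 cross used its 24 libraries and all 24011 features, and Keithly minus Little Jacks used 72 libraries and 23234 features, as a difference of within-strain differences because the tables were normalised separately. A feature was called at an adjusted p (Benjamini-Hochberg, two-sided) under 0.05. On this scale fold changes understate those of low features. Alternatives were edgeR 4.0.16 on recovered reads, DESeq2 1.42.0 median-of-ratios factors, column totals, pseudocounts of 0.1 and 2, a filter, and left-out libraries. The fits were tested on simulated data. Named members were the 2 raised and 2 lowered in the F1 cross with the same sign on 4 days and the largest gaps, plus ribosomal RNA members. Members, rule and tests were chosen with earlier results of these data known, and the comparison of strain offsets between temperatures was added after seeing the data. It used mean log2 levels per group, averaged over days. Floors of 3 reads cover counting error only.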

Additional observations from a re-analysis of the deposited data

Results flagged for a closer look

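Members g00099, g15309 and g21197 were picked out because a test of the difference itself called their averaged heat effect different between the parental strains. The rule that chose the members used this contrast, so the calls are descriptions. For g00099 the effect in Keithly minus that in Little Jacks was 2.58 ± 0.26 (log2, SE; limma adjusted p 1.83e-09). For g15309 it was 1.52 ± 0.43, with a limma adjusted p of 0.0442 that became 0.0736 with a pseudocount of 0.1, 0.0599 with median-of-ratios scaling and 0.0615 in edgeR, and the call was lost in 30 of 48 fits that left out 1 library. For g21197 it was 1.49 ± 0.36, with a limma adjusted p of 0.0133. Feature g10324 had a larger value, 4.14 ± 1.37, that was not called (limma adjusted p 0.0956). Each value joins a strain difference at 28 °C with one at 15 °C, and for most members those had opposite signs, as given above.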

How the results depend on the processing

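The counts averaged over days kept to within 1.5 times under every alternative run, with 73 to 86 members raised and 19 to 24 lowered in the F1 cross when 1 library was left out, 103 to 131 called for Keithly minus Little Jacks and 157 to 171 nearer Keithly. Leave-one-out counts of raised and lowered members ran from 33 to 43 and 8 to 13 on day 1, 32 to 56 and 4 to 11 on day 3, 19 to 40 and 2 to 4 on day 7, and 19 to 41 and 1 to 8 on day 28; for the change from day 1 to day 28 they were 3 to 9 increases and 14 to 21 decreases. With column totals 40 members were lowered on day 1, 1 on day 28, and 39 increased from day 1 to day 28. Without the libraries beyond the gap and the shallow ones, 10 were lowered on day 7. For these counts of day 28 and day 7 the share of all features is not given here, so no excess is read. The set itself moved more. It held 84 members at an overall mean of at least 20 and 115 at a gap of at least 1. Without the libraries beyond the gap it held 419, of which 170 were among the 215. With the shallow libraries left out as well it held 223, of which 150 were among the 215. Leaving out 1 library gave 202 to 393. The cause was not tested. The F1 effect of rRNA_16S_2 passed the threshold with a pseudocount of 2 (limma adjusted p 0.0458) and with the filter (0.0466). It did not pass with column totals (limma adjusted p 0.165) or in edgeR (adjusted p 0.0631). Nor did it pass without the libraries beyond the gap (limma adjusted p 0.0760) or without the shallow ones (0.0923). With column totals the median day 1 effect of the members was -0.48, against 0.17 in the main scaling. Leaving out both kinds of library together was chosen after seeing the data. No paired analysis was possible because the replicate numbers of the columns match no label and tie no samples across groups. Depth limits members near 3 reads, and folds there are not read as sizes.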
